A study of Mus musculus with 8 samples.

Results

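Bmi1, Hopx, Lrig1, Mex3a, Krt19 and Sox9 are 6 genes used to mark reserve and progenitor cells of the intestinal crypt. They were chosen by symbol, each symbol matched 1 of the 55487 named rows of the count table, and all 6 were among the 14011 genes that passed the filter on low counts and were tested. RNA had been sequenced from ileal crypt cells of C57BL/6 mice, the crypt being the pocket at the base of the gut lining where its stem cells divide. In 1 group mice had received CPT-11 at 20 mg per kg for 7 days (4 libraries), and in the other vehicle (4 libraries). CPT-11 is irinotecan, a prodrug whose active product traps topoisomerase I on DNA and breaks replicating chromosomes. The labels name no transgene or mutant allele in either group, and give neither the age of the mice nor what the vehicle was. Crypts were freed with EDTA, strained and trypsinised without a sort, so each library is a mixture of crypt cell types. Nothing in the labels ties a library to its own animal. The p-values therefore describe variation among libraries, part of which may be technical.

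Crypt renewal rests on columnar cells at the base that carry the R-spondin receptor Lgr5 and divide all the time. A second group of cells, lying mostly just above the base and dividing less often, can restore the Lgr5 population after injury such as irradiation or chemotherapy. Bmi1, Hopx and Lrig1 were each used in lineage tracing to mark such reserve cells, Mex3a marks slowly dividing cells within the Lgr5 compartment, and Krt19 and Sox9 mark progenitors more broadly. These transcripts are not exclusive to reserve cells, and several are also found in Lgr5 cells or in differentiated epithelium. In RNA from whole crypts, fewer cells of a type and less RNA per cell cannot be told apart.

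Total counts were 20790164 to 23479121 per library. CPT-11 replicate 2 stood apart from the other libraries. Its TMM scaling factor was 0.731 against 0.977 to 1.10 in the other 7, its Spearman correlation with the other CPT-11 libraries was 0.930 to 0.962 across genes, and its long genes were low (slope -0.28 log2 CPM per doubling of exonic length, against -0.11 to 0.14 elsewhere). Results are therefore also given without it. The preparations carried epithelial markers. Epcam, Cdh1, Krt8, Krt18, Vil1, Cdx1 and Cdx2 summed to 8597 to 9831 CPM in vehicle libraries and 9658 to 11808 CPM after CPT-11. This list marks epithelium in general and does not show that the cells came from the crypt.

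After CPT-11, none of the 6 reserve and progenitor markers passed the test, while Lgr5 fell to 0.240 of its vehicle level. By edgeR 0 members were called higher and 0 lower, against 5.5% of all genes tested. For 6 genes a count of 0 is near that share. The test was quasi-likelihood, with a threshold of 0.05 after Benjamini-Hochberg adjustment over 14011 genes. In this fit 0 members were below an unadjusted p of 0.05 (24.6% of all genes). By adjusted p, 0 were also called with DESeq2, with limma-voom and without CPT-11 replicate 2. Without that replicate, edgeR gave Lrig1, Hopx and Bmi1 an unadjusted p of 0.00748, 0.0156 and 0.0370. On all libraries, Lrig1 had an unadjusted p of 0.0489 with limma-voom and 0.0259 with edgeR and a replicate block. Limma-voom with quality weights gave Hopx, Bmi1 and Lrig1 an unadjusted p of 0.00454, 0.0123 and 0.0239. Without CPT-11 replicates 2 and 4, edgeR gave Lrig1 an unadjusted p of 0.0207. Only limma-voom with quality weights called 1 member, Hopx, as higher. Bmi1, Hopx, Krt19 and Sox9 had positive fold changes and Lrig1 and Mex3a negative ones, with a median log2 fold change of 0.12 against 0.014 over all genes. In simulated data with the means and library sizes of this comparison edgeR found 9 of 67 genes changed 1.5-fold and 25 of 67 changed 2-fold. The simulation changed fewer genes than the 770 called here and gave both groups the same dispersion. These shares therefore do not give the power of the real comparison. A p-value that misses the threshold does not show that a gene stayed the same, so the 95% intervals are given below. For all 6 genes it lay above the interval of Lgr5 (log2 fold change -2.06, interval -2.38 to -1.74), although the differences from Lgr5 were not themselves tested.

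**Figure D1:**
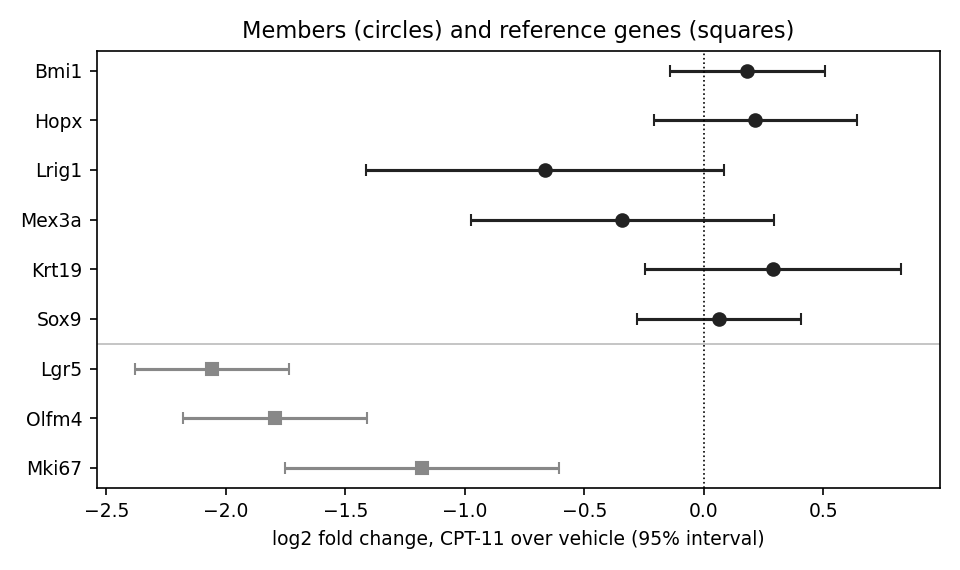
Log2 fold change of CPT-11 over vehicle for the 6 members (circles) and for Lgr5, Olfm4 and Mki67 (squares), with 95% intervals from the edgeR fit to 4 libraries per group. Every member's interval includes 0, and those of the 3 reference genes lie below 0.

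Bmi1 encodes a RING finger protein of polycomb repressive complex 1, which silences the Ink4a-Arf locus and so sustains self-renewal. The gene lies on chromosome 2 from 18677018 to 18686629 on the plus strand (GRCm38, GENCODE M21, protein-coding). Vehicle replicates 1 to 4 held 14.2, 13.4, 12.1 and 14.2 CPM (counts scaled to a common library size), and CPT-11 replicates 1 to 4 held 16.9, 12.1, 15.7 and 16.4 CPM. Of the CPT-11 libraries, 3 lay above all vehicle libraries and replicate 2 lay among them, so the groups overlapped. The mean went from 13.5 ± 0.974 to 15.3 ± 2.14 CPM (SD, n = 4 each), a log2 fold change of 0.18 (interval -0.14 to 0.51, adjusted p = 0.452). Without CPT-11 replicate 2 the log2 fold change was 0.29 (adjusted p = 0.172). These data thus leave room for a rise of Bmi1 up to 1.42-fold and for a fall to 0.906 of the vehicle level.

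Its neighbour on the same strand, Commd3, ends at 18676231, shortly before Bmi1 starts, and the window around the Bmi1 start is printed because it separates a gene that rose from one that did not pass. Commd3, a copper-metabolism domain gene whose values were looked at for its position, rose from 31.3 ± 2.39 to 57.6 ± 9.83 CPM (1.84-fold, edgeR adjusted p = 0.0103), and its groups did not overlap. Whether the 2 genes differed in response was not tested. The window (RefSeq, GRCm38.p6, chr2:18676768-18677067, plus strand) runs from 250 bases before the start to 50 after it, and capitals mark its 1 match to the motifs searched, a TEAD motif (CATTCC, on the reverse strand).
Bmi1 start: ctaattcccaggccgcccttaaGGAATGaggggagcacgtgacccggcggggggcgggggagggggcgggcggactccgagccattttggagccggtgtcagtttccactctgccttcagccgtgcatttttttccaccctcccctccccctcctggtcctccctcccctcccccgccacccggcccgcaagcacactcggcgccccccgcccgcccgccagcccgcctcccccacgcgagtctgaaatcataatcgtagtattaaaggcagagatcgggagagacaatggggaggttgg
With 23 CG dinucleotides the window held as many as or more than 80.0% of all 32851 such windows, and 14.7% of those windows carry a TEAD match.

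Hopx encodes a small homeodomain protein that does not bind DNA itself, and it labels slowly dividing cells above the crypt base. It lies on chromosome 5 from 77086988 to 77115121 on the minus strand. With vehicle the libraries held 70.8, 61.8, 68.6 and 70.1 CPM in replicates 1 to 4. With CPT-11 they held 90.8, 52.6, 70.2 and 101 CPM. The CPT-11 libraries lay on both sides of the narrow vehicle range, 2 above it, 1 within and replicate 2 below. The means were 67.8 ± 4.15 and 78.8 ± 21.8 CPM (log2 fold change 0.22, interval -0.21 to 0.64, adjusted p = 0.496). This value moved with single libraries, to 0.38 without CPT-11 replicate 2 (adjusted p = 0.105) and to 0.068 without CPT-11 replicate 4 (adjusted p = 0.852). It was also 0.38 with limma-voom quality weights, and it passed the threshold there (adjusted p = 0.0279). Those weights were 0.146 for CPT-11 replicate 2 and 0.563 and 0.677 for CPT-11 replicates 3 and 4. The largest weight of all libraries went to CPT-11 replicate 1 (90.8 CPM), so this call leaned most on that library. With the trend on gene length removed the log2 fold change of Hopx was 0.027 (adjusted p = 0.956), the lowest of its 19 alternatives.

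Hopx was also the member whose counts were not whole numbers, and an antisense transcript, Hopxos (77094532 to 77102303, plus strand), overlaps its exons. Hopxos itself was estimated at 8.51 to 35.5 counts per library, against 852 to 2052 for Hopx. The use of strand in counting is not given in the sources used here, so reads from the shared stretch could be assigned to either gene. The second of the Hopx start windows in RefSeq (GRCm38.p6, chr5:77095218-77095517, minus strand) lies inside Hopxos and is shown for that reason, with its 1 motif match, to the SOX core ATTGTT, in capitals.
Hopx inner start: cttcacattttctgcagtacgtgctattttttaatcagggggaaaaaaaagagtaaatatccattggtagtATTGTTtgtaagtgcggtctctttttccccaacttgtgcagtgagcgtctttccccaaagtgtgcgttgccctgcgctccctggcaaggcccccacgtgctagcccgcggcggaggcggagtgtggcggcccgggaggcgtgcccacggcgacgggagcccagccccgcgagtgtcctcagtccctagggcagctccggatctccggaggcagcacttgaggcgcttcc
A match to the SOX core occurs in 10.7% of all windows, and the outer Hopx start at chr5:77115074-77115373 had no match to any motif searched.

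Lrig1 encodes a transmembrane protein that promotes the degradation of ERBB receptors and so limits growth factor signalling in stem cells. It lies on chromosome 6 from 94604529 to 94700158 on the minus strand. Vehicle replicates 1 to 4 stood at 80.5, 65.7, 74.4 and 66.8 CPM, and CPT-11 replicates 1 to 4 at 56.6, 15.4, 58.1 and 51.0 CPM. Every CPT-11 library lay below every vehicle library, which is also so for 10.1% of all genes tested. Lrig1 was the only member without overlap, and 0 members lay wholly above vehicle (8.43% of all genes). The mean was 71.9 ± 6.95 CPM in the vehicle group and 45.3 ± 20.2 CPM after CPT-11, a log2 fold change of -0.67 (interval -1.41 to 0.084) that did not pass (adjusted p = 0.248).

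That value moved with 1 library. CPT-11 replicate 2 held Lrig1 at 1.84 log2 units below the mean of the other 3 CPT-11 libraries, and 2.52% of all tested genes were as far below or farther. The trend of that library on gene length amounted to -0.20 log2 units for a gene as long as Lrig1. Without replicate 2 the CPT-11 mean was 55.2 ± 3.72 CPM, the log2 fold change -0.37 and the adjusted p 0.0687. Without CPT-11 replicates 2 and 4 it was -0.32 (adjusted p = 0.123), and with the length trend removed -0.61 (adjusted p = 0.213). The sign was negative in all 19 alternatives, which ranged from -0.82 to -0.32, and the adjusted p from 0.0687 to 0.438. The last exon of Lrig1 meets the end of Slc25a26 on the opposite strand, a mitochondrial carrier at 151 to 319 counts per library that did not pass either (log2 fold change -0.24, adjusted p = 0.462). The window around the Lrig1 start (RefSeq, GRCm38.p6, chr6:94700096-94700395, minus strand) is printed because Lrig1 was the only member whose libraries separated by group, with its single match, to the SOX core, in capitals.
Lrig1 start: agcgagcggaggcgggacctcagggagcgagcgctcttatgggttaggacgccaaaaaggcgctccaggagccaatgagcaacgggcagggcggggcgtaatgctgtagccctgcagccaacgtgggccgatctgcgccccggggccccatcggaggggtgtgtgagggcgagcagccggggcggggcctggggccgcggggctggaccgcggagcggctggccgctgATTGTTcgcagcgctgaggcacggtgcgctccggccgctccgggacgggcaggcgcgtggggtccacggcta
This window held 35 CG dinucleotides, as many as or more than 93.8% of all windows.

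Mex3a encodes a KH-domain RNA-binding protein and was the rarest of the 6. It lies on chromosome 3 from 88532395 to 88541396 on the plus strand. Its counts were 15 to 53 per library, which limits what can be detected. Vehicle libraries held 2.05, 1.61, 2.21 and 1.75 CPM and CPT-11 libraries 1.77, 0.925, 1.46 and 1.83 CPM, so that 2 CPT-11 libraries lay within the vehicle range and replicates 2 and 3 below it. The means were 1.91 ± 0.275 and 1.498 ± 0.414 CPM (log2 fold change -0.34, interval -0.97 to 0.29, adjusted p = 0.469). Without CPT-11 replicate 2 the log2 fold change was -0.17 (adjusted p = 0.730). Its interval allows a fall to 0.510 of the vehicle level as well as a rise of 1.22-fold.

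Krt19 encodes a type I keratin of simple epithelia and was by far the most abundant of the 6. The gene lies on chromosome 11 from 100140810 to 100148665 on the minus strand. It stood at 2035, 2139.7, 2476 and 2421 CPM in vehicle replicates 1 to 4 and at 2224, 3812, 1879 and 3177 CPM in CPT-11 replicates 1 to 4. CPT-11 replicates 2 and 4 were above the vehicle range, replicate 1 within it and replicate 3 below it. The means were 2268 ± 214 and 2773 ± 884 CPM (log2 fold change 0.29, interval -0.25 to 0.83, adjusted p = 0.467). The sign rested on replicates 2 and 4, without which the log2 fold change was -0.14 (adjusted p = 0.599), and it was 0.11 without replicate 2 alone (adjusted p = 0.768). Goblet cell markers (Muc2, Tff3, Agr2, Spdef, Clca1, Fcgbp and Zg16) were also highest in those libraries, summing to 36672 CPM (replicate 2) and 20204 CPM (replicate 4), and to 10538 to 14686 CPM in the other 6. Their part in the Krt19 level was not tested. With the trend on gene length removed, the log2 fold change of Krt19, a short gene, was 0.062 (adjusted p = 0.815).

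Sox9 encodes an HMG-box transcription factor of stem and progenitor cells that Paneth cell formation also requires. It lies on chromosome 11 from 112782224 to 112787760 on the plus strand. The vehicle libraries were tightly grouped at 23.3, 21.2, 21.3 and 22.5 CPM, whereas the CPT-11 libraries held 20.7, 22.5, 29.7 and 19.3 CPM. Replicate 3 was above the vehicle range, replicate 2 within it, and replicates 1 and 4 below. The means were 22.1 ± 1.04 and 23.0 ± 4.62 CPM, and the log2 fold change of 0.062 was the smallest of the 6 (interval -0.28 to 0.40, adjusted p = 0.823). It turned to -0.090 without CPT-11 replicate 3 (adjusted p = 0.639). The interval for Sox9 excludes changes beyond 1.32-fold upward and 0.824 of the vehicle level downward. Of the Paneth cell markers (Lyz1, Mmp7, Ang4, Itln1, Defa17 and Defa24) 0 of 6 were called (median log2 fold change -0.30). Their sums were 40796 to 58383 CPM in vehicle libraries. After CPT-11 the sums were 25379 to 36591 CPM in replicates 1, 3 and 4, below all vehicle libraries. In CPT-11 replicate 2 the sum was 47174 CPM, so the groups overlapped.

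**Figure D2:**
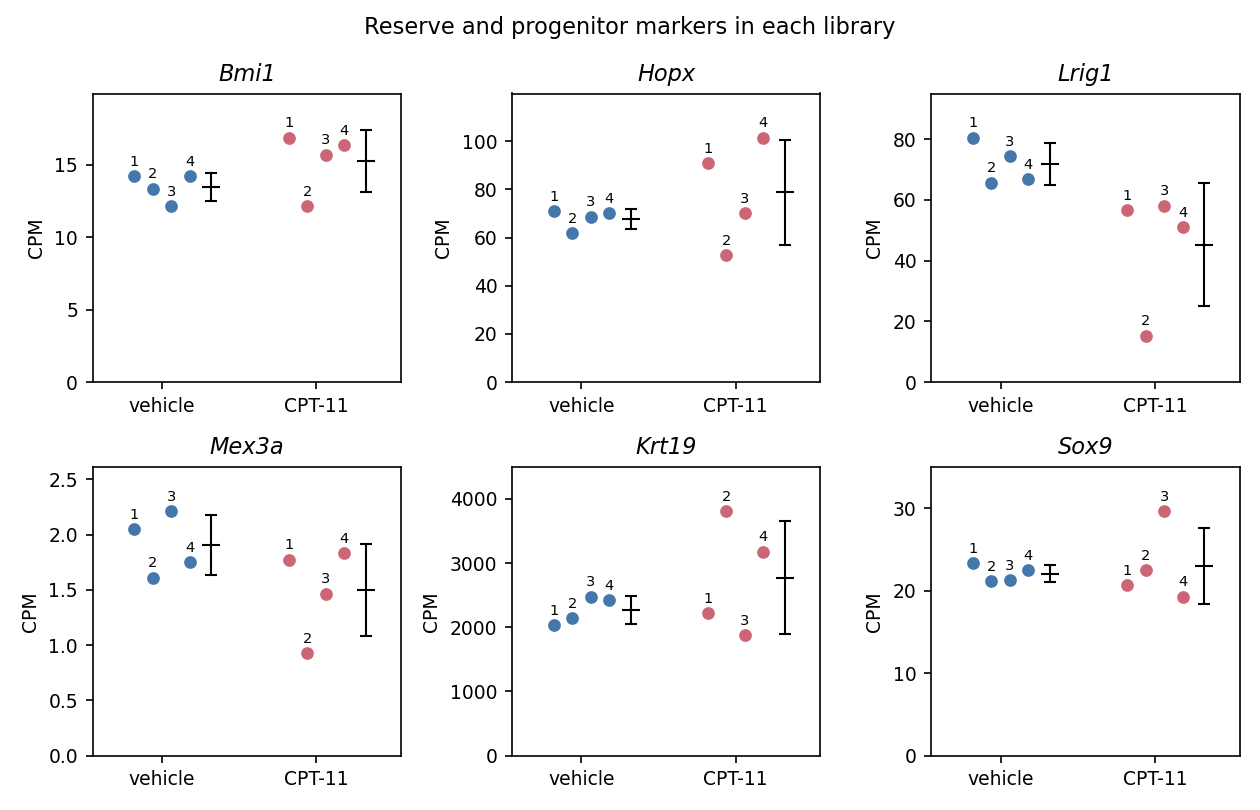
CPM of each member in every library (points, labelled by replicate number), with the mean and SD of the 4 libraries of each group beside them. The vehicle points lie close together, the CPT-11 points spread more widely, and only for Lrig1 do the groups not overlap (65.7 to 80.5 against 15.4 to 58.1 CPM).

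Per kilobase of exon, the members covered a wide range of abundance in vehicle crypts. Krt19 stood at 1223 ± 115 CPM per kb, rank 57 of the 14002 tested genes with a known length. It was followed by Hopx (44.7 ± 2.74), Lrig1 (12.9 ± 1.24), Sox9 (5.34 ± 0.252), Bmi1 (3.39 ± 0.245) and Mex3a (0.330 ± 0.0475 CPM per kb), and no neighbours in this order overlapped in their 4 libraries. Bmi1 was near the middle of all tested genes, 48.5% of which stood at or below it, and Mex3a was near the bottom, with 10.7% at or below it. With CPT-11 the order of the means was the same, but Lrig1 (2.75 to 10.4 CPM per kb) now overlapped with Sox9 (4.66 to 7.18) and Bmi1 (3.06 to 4.25).

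Variation between libraries was larger with CPT-11 for all 6 members. Their coefficients of variation were 4.71% (Sox9) to 14.4% (Mex3a) with vehicle and 14.0% (Bmi1) to 44.6% (Lrig1) with CPT-11. The CPT-11 value was also the larger for 79.9% of all genes tested. Without CPT-11 replicate 2 it remained larger for 3 of the 6 members (Hopx, Krt19 and Sox9), against 60.8% of all genes. Relative to the other CPT-11 libraries, replicate 2 was low for Hopx (-0.72 log2 units), Mex3a (-0.80) and Bmi1 (-0.42), high for Krt19 (0.69) and level for Sox9 (-0.017). The length trend of that library for genes of their lengths was 0.58, -0.22, -0.042, 0.45 and -0.062 in the same order. The part of gene length in these differences was not tested.

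Set against Lgr5 within each library, 5 of the 6 members separated the groups. For Sox9 the log2 ratio to Lgr5 went from 0.77 to 0.88 in vehicle libraries to 2.65 to 3.36 in CPT-11 libraries. Bmi1 went from 0.0099 to 0.22 up to 1.97 to 2.48, so that it was as abundant as Lgr5 in counts with vehicle and well above it with CPT-11. Hopx (mean shift 2.20), Krt19 (2.26) and Mex3a (1.66) moved the same way. Lrig1 was the exception, with 2.45 to 2.62 in vehicle libraries, 4.10 to 4.33 in 3 CPT-11 libraries and 2.31 in CPT-11 replicate 2. Such a shift is general: 94.2% of all genes tested were higher relative to Lgr5 in every CPT-11 library, and the median shift over all genes was 2.02. Lgr5 itself fell from 12.4 ± 0.801 to 2.98 ± 0.187 CPM. With Olfm4, a secreted marker of the crypt base, as reference, the same 5 members separated and Lrig1 again overlapped (92.8% of all genes separated).

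**Figure D3:**
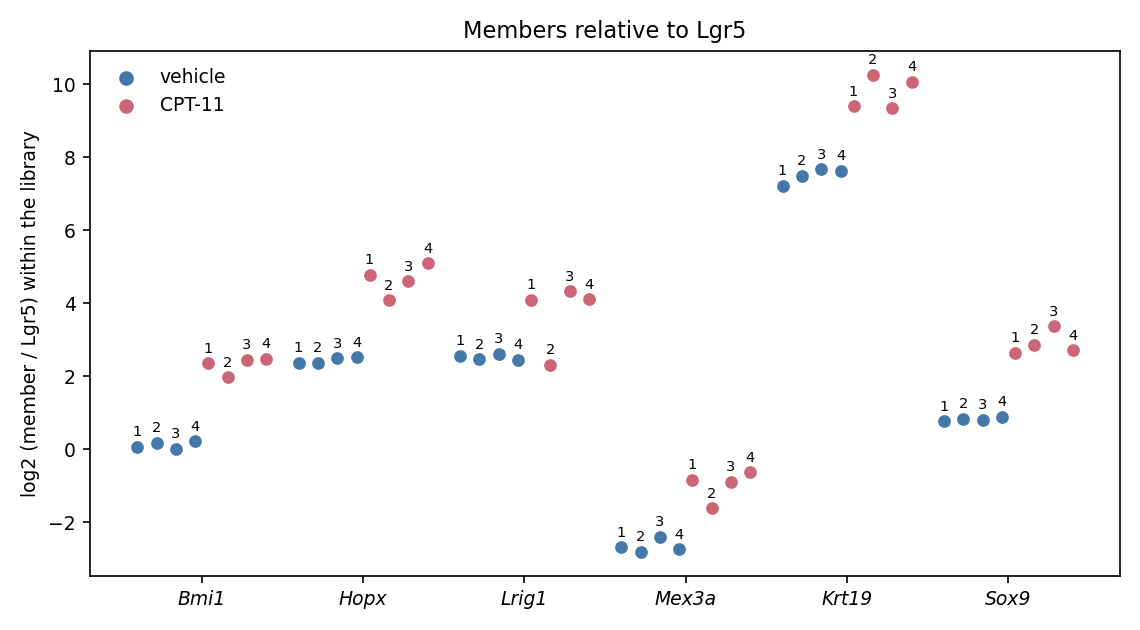
Log2 ratio of each member to Lgr5 within each library (vehicle left, CPT-11 right in each pair, points labelled by replicate). The ratio is higher in every CPT-11 library for all members except Lrig1, where CPT-11 replicate 2 falls at 2.31, below the vehicle range of 2.45 to 2.62.

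For each member the 3 genes with the nearest profile over the 8 libraries were found by the root mean square difference of centred log2 CPM among 8767 genes. Nearest to Lrig1 were Chaf1a (0.096 log2 units), Gon4l (0.12) and Dgcr8 (0.12). Bmi1 was matched by Selenot, Usp15 and Rnf14 (0.042 to 0.052), Hopx by Nudcd2, Hmgn1 and Orc2 (0.074 to 0.083) and Mex3a by Wdr5, Ssrp1 and Pold3 (0.043 to 0.071). Krt19 was matched by Med28, Rpl21 and Eef1d (0.052 to 0.057), and Sox9 by Nol4l, Crybg1 and Tsc22d2 (0.055 to 0.064). Profiles this flat have much company, with 1379 genes within 0.2 log2 units of Bmi1 and 1008 of Sox9, but 38 of Lrig1. Of these 18 neighbours, 2 were found again without CPT-11 replicate 2, and 7 to 14 without any other 1 library. Among the members, Bmi1 and Hopx were the most alike (0.17) and Lrig1 and Krt19 the least (0.98).

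Calls were made in the gene groups around the members, and the counts below stand against 2.98% of all tested genes called higher and 2.52% called lower. The lists were drawn up with earlier results of these data known, so differences in direction between them are descriptions and were not tested. Of 15 markers of active crypt base columnar cells 5 fell and 0 rose (median log2 fold change -0.43 against 0.014 over all genes). Of the 10 not called, 1 had a positive log2 fold change, Ascl2 (0.37), with 3 CPT-11 libraries above all vehicle libraries. Cdk6 and Tnfrsf19 stood at -0.00056 and -0.13. The 5 that fell were Nrn1, a neuritin (0.121 of the vehicle level, adjusted p = 5.93e-05), Lgr5 (adjusted p = 7.92e-05), Olfm4, Smoc2 and Rgmb. Of 11 tested genes also used as markers of reserve, label-retaining or injury-activated cells, 4 rose and 0 fell (median 0.74). They were Cd44, the hyaluronan receptor (2.36-fold, adjusted p = 0.00123), Clu, clusterin, a marker of cells that appear after injury (2.65-fold, adjusted p = 0.0206), Krt15 and Msi1. The list did not move as one: Dll1 (-0.62), Prox1 (-0.58), Fgfbp1 (-0.41) and Cd24a (-0.21) had negative log2 fold changes that did not pass, each with 3 CPT-11 libraries below all vehicle libraries. Ly6a (1.86) and Anxa1 (1.79) had positive ones that did not pass. Tert, the telomerase reverse transcriptase that also marks slowly dividing cells, stood at 0.19 on the log2 fold scale (adjusted p = 0.725). Among 20 genes of cycling cells 5 fell and 0 rose (median -0.41), namely Aurkb and Top2a (0.468 and 0.393 of the vehicle level, adjusted p = 0.00216 and 0.0107), Mki67, Tpx2 and Aurka.

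Partners and relatives of single members gave mixed counts. Of 19 tested polycomb genes 3 fell and 1 rose (median -0.13). Cbx7 and Phc1, a chromobox and a polyhomeotic subunit, fell to 0.625 and 0.539 of the vehicle level (adjusted p = 0.0250 and 0.0289), Cbx6 fell as well, and Scmh1 rose 1.90-fold (adjusted p = 0.0148). Cdkn2a, the classical target that Bmi1 silences, was below the filter in both groups. For Lrig1, the list held ERBB receptors and their ligands, Lrig2, Lrig3 and Met. Of its 12 tested genes, 3 rose and 1 fell (median -0.19). The called genes were all ERBB ligands: Areg rose 8.36-fold (adjusted p = 0.00129), Ereg 2.44-fold (adjusted p = 0.0204) and Hbegf 1.84-fold, and Egf fell to 0.392 of its vehicle level (adjusted p = 0.0441). The receptors Egfr, Erbb2 and Erbb3 and the relatives Lrig2 and Lrig3 did not pass, with log2 fold changes of -0.68 (Erbb3) to -0.19 (Lrig3). Erbb2 (edgeR adjusted p = 0.0809) was lower in all 4 CPT-11 libraries than in any vehicle library, as were 10.1% of all genes tested. For Egfr, Erbb3, Lrig2 and Lrig3 the groups overlapped. None of the 3 other Mex3 genes was called by edgeR, nor at an unadjusted p below 0.05 or by DESeq2 (log2 fold changes -0.52 to -0.34). Of 5 other simple epithelial keratins 1 rose, Krt23 (1.86-fold, adjusted p = 0.0380), with Krt7, Krt8, Krt18 and Krt20 at positive values that did not pass. Of the 4 other Sox genes that passed the filter 0 were called by edgeR, 2 were below 0.05 unadjusted and DESeq2 called 1.

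The calls of Nrn1, Lgr5, Olfm4, Smoc2, Cd44, Aurkb, Top2a, Areg and Commd3 held in all 19 alternatives. Those of Rgmb, Krt15, Msi1, Phc1, Egf and Krt23 were lost without CPT-11 replicate 1 or 4 or any 1 vehicle library. Those of Clu and Mki67 were lost without CPT-11 replicate 1 or 4 or vehicle replicate 1, 3 or 4, and those of Tpx2, Aurka and Cbx6 without CPT-11 replicate 4 or any 1 vehicle library. Cbx7 and Hbegf lost theirs without CPT-11 replicate 1 or vehicle replicate 1, 3 or 4, Ereg without CPT-11 replicate 1 or vehicle replicate 1 or 3, and Scmh1 without vehicle replicate 1 or 3. The adjusted p after such losses was 0.0514 to 0.143. Further losses were those of Krt15 (limma-voom), Msi1 (no filter, replicate block), Tpx2 (without CPT-11 replicates 2 and 4), Aurka (the same, replicate block), Phc1 (without CPT-11 replicates 2 and 4, no filter, replicate block), Cbx6 (no filter, stricter filter), Egf (replicate block) and Krt23 (length trend removed). Without CPT-11 replicate 3, 3 genes of the ERBB list and 1 Sox gene were called lower and 2 keratins higher.

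**Figure D4:**
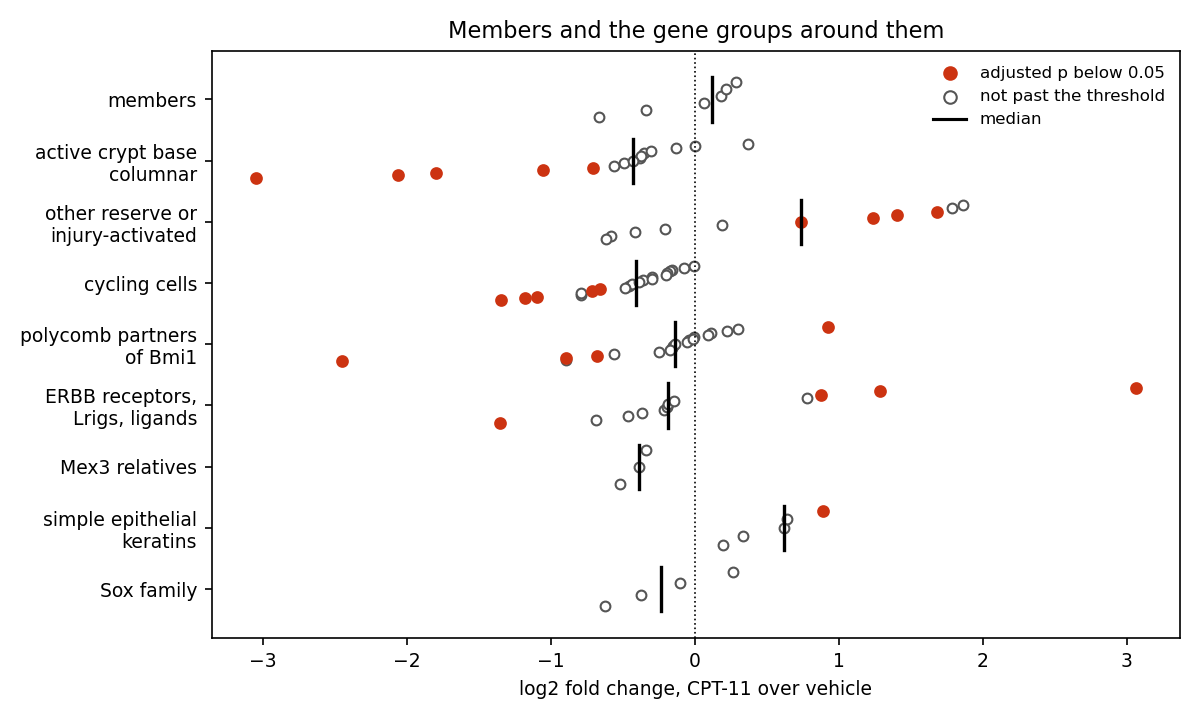
Log2 fold change of CPT-11 over vehicle for the tested genes of each group (points, filled where the edgeR adjusted p was below 0.05, with a bar at the median). No member is filled, whereas 5 crypt base columnar markers lie to the left and 4 other reserve or injury-activated markers to the right.

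Other cell types in these unsorted preparations express some of the members, so their markers are given beside them. Enterocyte markers summed to 11359 to 19134 CPM in vehicle libraries, and 1 of 10 was called higher. In CPT-11 replicates 1 to 4 the sums were 23135, 58672, 26210 and 18164 CPM. Replicate 2 thus stood far above all other libraries, and replicate 4 lay within the vehicle range. T cells, which can express Hopx, had marker sums of 67.1 to 184 CPM in vehicle libraries and 113 to 175 CPM after CPT-11 (0 of 7 called). Markers of B and plasma cells rose in 4 of 5 tested, and summed to 1.44 to 5.89 CPM in vehicle libraries and 7.45 to 16.1 CPM after CPT-11. Tuft and enteroendocrine markers, both types that can express Sox9, had 0 of 6 and 0 of 7 called, with sums of 33.8 to 47.7 and 252 to 303 CPM in vehicle libraries and 29.7 to 38.3 and 253 to 367 CPM after CPT-11. Fibroblast markers summed to 11.4 to 45.7 and 24.1 to 109 CPM, macrophage and dendritic cell markers to 36.8 to 50.3 and 37.2 to 53.3 CPM, and smooth muscle markers to 0.657 to 1.51 and 0.648 to 1.24 CPM, each with vehicle first. Endothelial markers summed to 2.12 to 2.37 CPM in vehicle libraries and to 2.58 to 3.64 CPM after CPT-11, higher in every CPT-11 library, with 0 of 2 tested called and Emcn at 0 in all 8 libraries. The part of these cells in the members' levels was not tested.

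**Figure D5:**
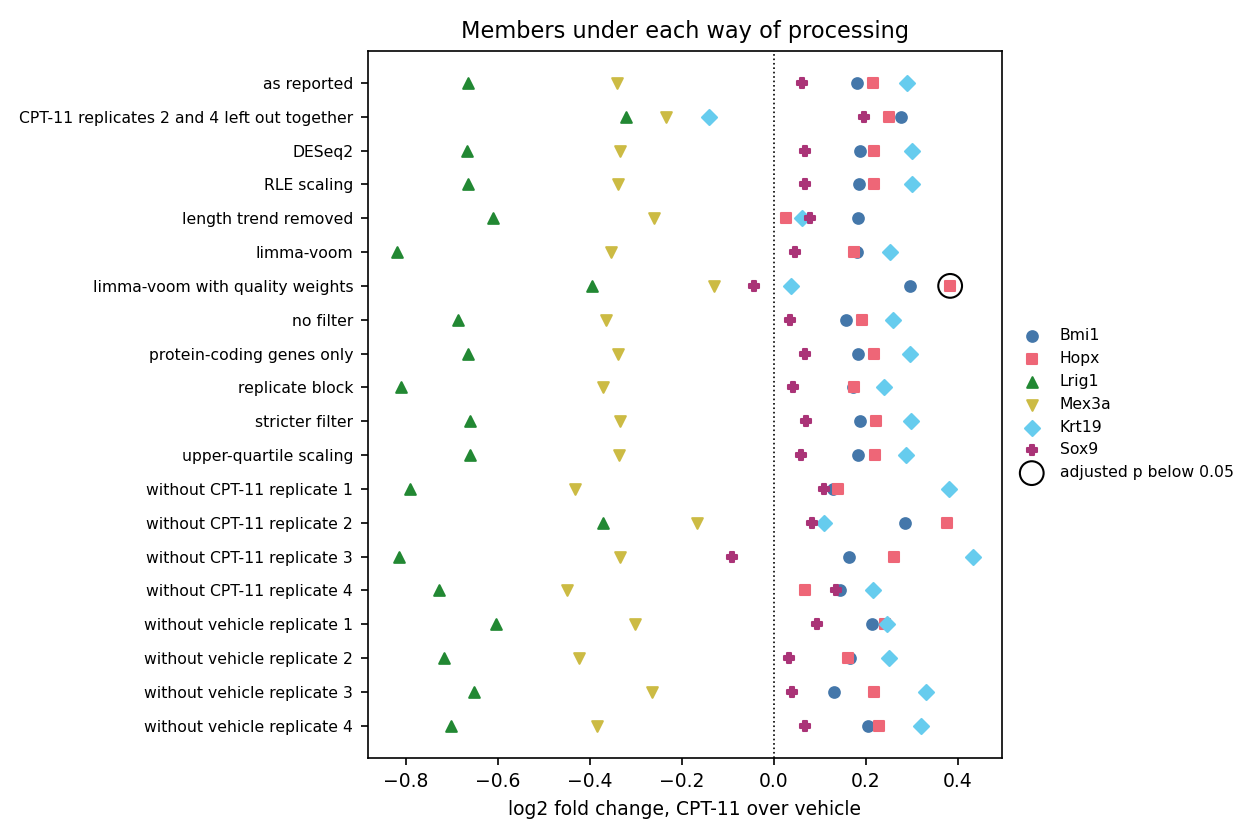
Log2 fold change of each member (CPT-11 over vehicle) as reported and under the 19 alternatives, with a ring where the adjusted p was below 0.05. The only ring is on Hopx with limma-voom quality weights (0.38), Lrig1 is the leftmost point in each row, and Krt19 and Sox9 cross 0.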

How the data were processed

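RNA sequencing of ileal crypt cells gave 1 table of estimated counts per gene, deposited by the authors without normalization (56030 rows; 10.3% to 11.1% of the values per library are not whole numbers). Per the submitters' processing notes, Bowtie2 2.4.1 and build GRCm38.p6 were used. For the counting tool and its strand setting, the entry is: not given in the sources used here. The 543 rows without a gene name (0.325% to 0.662% of each library) were left out. Each column was matched to its sample by name. The deposited group means were set aside. The deposited length column (other numbers) was not used. Lengths and positions came from GENCODE M21 on GRCm38, which held 55227 of the named rows.

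Rounded counts went into edgeR 4.0.16 (R 4.3.3): TMM scaling, default filter (a count of about 10 in a group's libraries and 15 in total), robust quasi-likelihood F test, two-sided, Benjamini-Hochberg over 14011 genes, threshold 0.05. Standard errors and 95% intervals were derived from the F statistic. CPM used library sizes after TMM scaling, and log2 CPM for ratios and profiles used a prior count of 2. Tested on simulated data for this comparison (14011 genes), edgeR found 9 of 67 genes at 1.5-fold, 25 of 67 at 2-fold and 59 of 66 at 4-fold, and made 3 false calls. The simulation gave both groups the same dispersion and changed fewer genes than the real fit called. No 2 libraries of a group agreed within sampling noise (chi-square over degrees of freedom at least 22.1).

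The alternatives tried: upper-quartile or RLE scaling, no filter, DESeq2 1.42.0, a filter at 1 CPM in at least 4 libraries, limma-voom with and without quality weights (limma 3.58.1), a replicate block, each library left out, CPT-11 replicates 2 and 4 left out, the length trend removed (lowess per library, span 0.3), and protein-coding genes only. Members and gene lists were chosen with earlier results of these data known. The rule for named genes took the 6 members, their 3 nearest profiles (mean log2 CPM above 3), Lgr5, Mki67 and, per list, up to 2 called genes each way. Commd3, Hopxos, Slc25a26, Tert, Cdkn2a and the further called or named list genes were named after their values were seen. Promoter windows were RefSeq's, found for 4 members. They were searched on both strands for ATCAAAG (TCF/LEF, in 3.73% of all windows), CATTCC (TEAD), ATTGTT (SOX core), TATAAA (the core promoter box, 13.6%) and the p53 response element (0.0731%). A match is a description, not a site.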

Additional observations from a re-analysis of the deposited data

Results flagged for a closer look

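Of 12 groups of 4 libraries (6 members, vehicle and CPT-11), 1 held a library far from the others: Lrig1 was at 15.4 CPM in CPT-11 replicate 2, and its gap to the next library took up 0.835 of the group's range, above Dixon's critical value for 4 samples. Chance flags about 1 in 20 such groups.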

How the results depend on the processing

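No member was called under 18 of the 19 alternatives. Limma-voom with quality weights called 1, Hopx (log2 fold change 0.38). Signs turned for Krt19 without CPT-11 replicates 2 and 4 (-0.14) and for Sox9 with quality weights (-0.044), and Sox9 ranged from -0.090 to 0.14 with 1 library left out. Over all genes, 770 were called (417 higher, 353 lower). DESeq2 called 1884 (1045 and 839), quality weights 3172 (1548 and 1624), the fit without CPT-11 replicates 2 and 4 1212 (637 and 575) and removal of the length trend 1196 (572 lower). With 1 library left out the calls ranged from 236 to 1522 (132 to 769 higher, 104 to 753 lower). They rose to 1177 without CPT-11 replicate 2 and to 1522 without CPT-11 replicate 3. Without any other 1 library they fell below 770, and a fit with fewer libraries can detect less. In the gene lists around the members 9 were called higher and 14 lower, 24 lower with quality weights, and 2 to 11 higher and 6 to 18 lower with 1 library left out. The ERBB list's median was 0.087 without CPT-11 replicates 2 and 4. With the longest transcript as length, vehicle levels per kb were 3.75 (Bmi1), 53.8 (Hopx), 14.5 (Lrig1) and 1439 (Krt19), in the same order. The cause of these shifts was not tested.

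The replicate numbers are not stated to pair libraries. Deviations of same-numbered libraries correlated at 0.23, 0.14, -0.12 and 0.091, and vehicle replicate 1 was closer to CPT-11 replicate 3 (0.24) than to its own number. With the replicate block 686 genes were called, and no member was (Lrig1 -0.81, adjusted p = 0.148). Depth limited Mex3a most, at 15 to 53 counts per library. A prior count of 0.5 for nearest profiles (17 of 18 kept) and the runs of profiles, ratios and levels without single libraries were chosen after seeing the data.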
